A study of Taeniopygia guttata with 39 samples.

Results

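A set of 150 transcripts whose mean level in HVC was lower after 8 h and 3 d of testosterone than in every other group of birds is described here, out of 26061 transcript identifiers on the array. The members were chosen on measured values. For each transcript, the higher of the means at 8 h and 3 d was subtracted from the lowest of the means in the control, 1 h, 3 h, 7 d and 14 d groups, and the 150 transcripts with the largest difference, called the score, were kept. The score was positive for 3532 transcripts, and among the members it ran from 0.31 to 0.78 on the log2 scale, with a median of 0.37. The cutoff did not fall in a gap, since the members ranked 146 and 150 scored 0.312 and 0.31, and the transcripts ranked 151 and 155, which are no members, scored 0.31 and 0.308. The 8 h and 3 d levels of the members against other groups are therefore given as a description, with no test.

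HVC is a forebrain nucleus of songbirds that drives the learned song through its projection to the motor nucleus RA and feeds the basal ganglia song pathway. Adult female canaries sing little, and testosterone, acting through androgen receptors and, after conversion to estradiol by aromatase, through estrogen receptors, brings them to sing and enlarges HVC. The members are no single pathway. The named ones are enzymes of pyruvate, amino acid, pyrimidine and fatty acid metabolism, endosomal and lysosomal sorting proteins, a splicing factor, proteins of DNA repair and cell division, and receptors and cytoskeletal proteins, with roles that are known mostly from mammals.

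The study measured total RNA of HVC, dissected from brain sections, on 39 arrays, each from 1 bird labelled as a biological replicate. All birds were adult, non-breeding females. Their light cycle was short, 9 h of light to 15 h of darkness, and each received a subcutaneous Silastic tube of 7 mm. In 5 control birds the tube was empty. It held testosterone for 1 h in 6 birds, 3 h in 5, 8 h in 5, 3 d in 6, 7 d in 6 and 14 d in 6, and only the 7 d and 14 d birds were labelled as singing. The control tube was not given a duration of its own, so 1 control group served all durations. The design text names canaries, whereas the organism field names the zebra finch, the species whose sequences most identifiers carry. One of the 5 arrays at 3 h, replicate 2, stood apart, with a median correlation of 0.886 to the other arrays across transcripts against at least 0.963 for each of the other 38, and the rule leaves it out. HVC holds neurons and glia, and in such bulk tissue fewer cells of a type and less RNA per cell cannot be told apart.

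The numbers that the sample titles give the birds were lower for every bird at 8 h and 3 d, groups whose ranges overlap, than for any bird of the other groups, and the controls had the highest. The duration and the range of bird numbers cannot be told apart for the 8 h and 3 d groups. The letter that follows the number, L or R, was missing on 4 of 5 arrays at 8 h and 2 of 6 at 3 d and on no array of the other groups. All levels below are log2 values from which the array's median was subtracted and to which the mean of the 39 array medians, 7.67, was added, so that they stay on the deposited log2 scale.

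Taken per bird as the median over the 150 members, the level was 7.14 ± 0.25 (SD, n = 5) in controls, 7.32 ± 0.36 (n = 6) at 1 h and 7.23 ± 0.08 (n = 4) at 3 h. It was 6.57 ± 0.13 (n = 5) at 8 h and 6.70 ± 0.21 (n = 6) at 3 d, then 7.19 ± 0.29 (n = 6) at 7 d and finally 7.64 ± 0.13 (n = 6) at 14 d. All 5 birds at 8 h lay between 6.40 and 6.76, below all 5 controls, which lay between 6.83 and 7.47. The birds at 3 d reached from 6.43 to 6.96 and so into the lower end of the controls. Averaged over groups, the members were a median of 0.64 lower at 8 h and 3 d than in the other 5 groups, a 1.56-fold difference, and single members ranged from 1.32-fold to 2.43-fold.

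**Figure D1:**
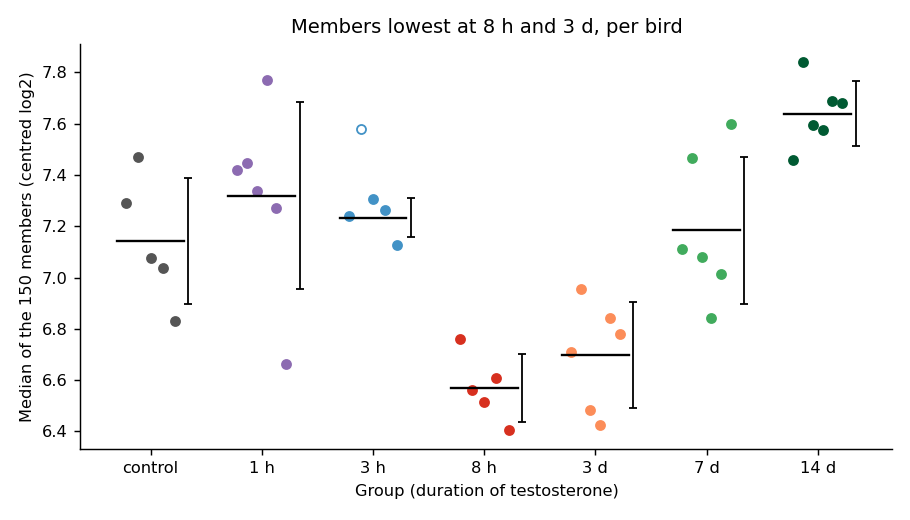
Median centred log2 level of the 150 members on each array (points), by group, with the group mean (line) and SD (bar); the open circle is 3 h replicate 2, which was left out of the rule and the mean. The 8 h birds lie between 6.40 and 6.76 and the 14 d birds between 7.46 and 7.84.

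The separation was one of group means and not of every bird. Over the 11 birds at 8 h and 3 d the per-bird median was 6.40 at the lowest, 6.61 in the middle and 6.96 at the highest, and over the 27 birds of the other 5 groups it was 6.66, 7.31 and 7.84. The overlap was made by 3 birds of the other groups, namely 1 h replicate 6 at 6.66, control replicate 5 at 6.83 and 7 d replicate 4 at 6.84, and by birds of both low groups that reached above the lowest of these, up to 6.76 at 8 h and 6.96 at 3 d. No member, and none of the 26061 transcripts (0%), had all 11 birds below all 27 others. In the opposite direction, 6 transcripts (0.023%) had all 11 birds above all 27 others.

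When the 150 transcripts were chosen again with 1 array left out, 117 to 148 of the members were kept, fewest without control replicate 5. Only the values on the left-out array are free of the rule. The group means they are set against are those by which the 150 were re-chosen. This choice by itself can raise the counts over the shares of all transcripts. The re-chosen transcripts also vary together within groups. The counts below are therefore a description and no test. On each left-out 8 h array, 131 to 145 of the 150 re-chosen transcripts lay below the lowest mean of the other 5 groups, where 23.9% to 26.6% of all transcripts did. On the left-out 3 d arrays the count was 127 to 146, with the exception of replicate 2, on which it was 73, where 20.7% to 27.1% of all transcripts did. On left-out arrays of the other 5 groups it ran from 10 to 121, where 16.4% to 32.4% of all transcripts did, and was highest on control replicate 5, followed by 99 on control replicate 4 and 90 on 1 h replicate 6. On the left-out arrays of the other 5 groups, 106 to 149 of the 150 lay above both the 8 h and the 3 d mean, fewest on control replicate 5 and 1 h replicate 6, where 35.6% to 46.6% of all transcripts did. The array at 3 h that the rule leaves out had a member median of 7.58, above all 5 controls, and 139 of the 150 members lay above both low means on it, as did 53.9% of all transcripts. On the same array 31 members lay below the lowest mean of the other 5 groups, as did 34.5% of all transcripts.

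The level of the members followed the array median, the value subtracted in centring. Array medians, on the deposited log2 scale, averaged 7.58 at 8 h and 7.57 at 3 d, 7.59 in controls, 7.71 at 1 h and 3 h, 7.69 at 7 d and 7.82 at 14 d. The 3 birds of other groups whose member median reached down among the 8 h and 3 d birds had low array medians, 7.49 for 1 h replicate 6, which was the lowest of all, 7.50 for control replicate 5 and 7.57 for 7 d replicate 4. The 3 d bird with the highest member median, replicate 2, had the highest array median of its group, 7.68. Within groups, the slope of the centred level on the array median was positive for 128 of the 150 members, 85.3%, and for 45.1% of all transcripts.

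**Figure D2:**
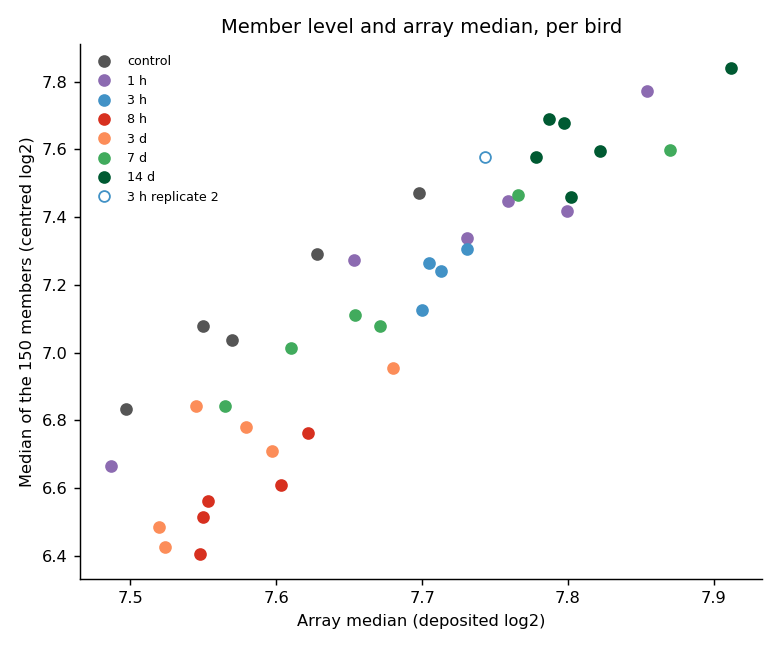
Median centred log2 level of the 150 members (vertical) against the array median on the deposited log2 scale (horizontal), 1 point per bird, coloured by group, with 3 h replicate 2 as an open circle. Birds with a higher array median had a higher member level in most groups. The 8 h birds lay below the controls of a similar array median, a difference for which the rule chose the members.

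Controls had nearly the same array medians as the 8 h and 3 d birds. Their member levels were higher, 7.14 against 6.57 and 6.70, but the rule chose the members for this difference, so nothing is read from it. With the array median as a further term in the group means, an alternative chosen after seeing the data, the score stayed above 0 for 124 of the 150 members, but its median over them fell from 0.37 to 0.18 (0.1845), and 49 of the 150 were still among the 150 highest scores. What lies behind the shared movement of the array median and the member level was not tested.

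Through RefSeq accessions, 2471 of the 26061 identifiers were matched to a gene of a zebra finch annotation, and 2244 of these had a symbol other than a bare locus number. Of the members 21 were matched, 19 with such a symbol, so that 129 members carry no gene name here and the named members are a minority. The order by score of the 18 named members described here was PDHA1, CAPS2, STAM, TDO2, MFAP1, BLOC1S5, FANCB, ZDHHC6, AHCY, SCD5, ASB4, HPD, UMPS, PLEK, BIRC5, ACVR2B, SCD and ACTC1, from 0.60 (0.605) down to 0.31 (0.312). None were close neighbours in that annotation, the nearest pair of these 18 being FANCB and PDHA1, 30 genes apart.

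PDHA1, the alpha subunit of the pyruvate dehydrogenase enzyme that feeds pyruvate into the citric acid cycle as acetyl-CoA, had the highest score of the named members. Its level was 6.98, 6.54, 6.48, 6.65 and 6.36 in the 5 birds at 8 h, and at 3 d it was 6.24 at the lowest, 6.67 in the middle and 7.15 at the highest. In controls it was 7.75, 8.04, 7.10, 7.20 and 7.41. All 8 h birds were below all controls, while the highest 3 d bird was level with the lower controls. Averaged over groups, PDHA1 was 1.98-fold lower at 8 h and 3 d than in the other 5 groups, and its level differed by 0.12 ± 0.20 (SE) between 3 d and 8 h.

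Of the named enzymes of amino acid and nucleotide metabolism, AHCY, which breaks down S-adenosylhomocysteine, the product of methylation reactions, was 7.75, 7.87, 7.80, 7.70 and 7.40 at 8 h and 8.51, 8.69, 7.98, 8.29 and 8.20 in controls. Every 8 h bird was below every control. UMPS, which makes uridine monophosphate in the last steps of pyrimidine synthesis, was 7.32 ± 0.19 (n = 5) at 8 h, 7.34 ± 0.15 (n = 6) at 3 d and 7.77 ± 0.16 (n = 5) in controls, and its 8 h birds, at most 7.52, also stayed below the lowest control at 7.63.

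TDO2, tryptophan 2,3-dioxygenase, opens the kynurenine route of tryptophan breakdown. It was 3.38 ± 0.37 at 8 h, 3.27 ± 0.31 at 3 d and 4.00 ± 0.68 in controls, whose values were 4.61, 4.19, 4.62, 3.49 and 3.11. The 8 h birds lay between 2.88 and 3.76, so the groups overlapped. HPD, which converts 4-hydroxyphenylpyruvate in tyrosine breakdown, was 3.73 ± 0.48 at 8 h and 3.89 ± 0.64 at 3 d, but all 11 of these birds overlapped with the other groups, which reached down to 2.87 in 1 bird at 14 d. Both are dim on this array: 8 of 11 TDO2 values at 8 h and 3 d, and 2 of 11 HPD values, lay under the lowest 5th percentile of their array.

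Both stearoyl-CoA desaturases that could be named, the enzymes that put the double bond into saturated fatty acids, were members. SCD was 8.20, 7.82, 7.80, 8.27 and 8.00 at 8 h and 7.93, 8.75, 8.54, 8.24 and 8.80 in controls. Its groups overlapped, and the difference between the 5 groups and the low pair of groups was 1.37-fold. SCD5 was 6.46 ± 0.16 (n = 5) at 8 h and 7.03 ± 0.20 (n = 5) in controls, with every 8 h bird, at most 6.66, below the lowest control at 6.78. At 3 d SCD5 ran from 5.89 to 7.18, over most of the range of the controls.

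ZDHHC6 is a palmitoyltransferase of the endoplasmic reticulum that attaches fatty acids to proteins. It was among the named members with the fewest birds of the other groups in the range of the 8 h and 3 d birds. Its level was 5.17, 5.58, 5.44, 5.47 and 5.41 at 8 h and 5.24 at the lowest, 5.43 in the middle and 5.57 at the highest at 3 d. All 11 of these birds lay below all 5 controls, of which the lowest was 5.66. Only 1 of the 27 birds of the other 5 groups, 14 d replicate 3 at 5.42, came into the range of the 8 h and 3 d birds. Of these 11 birds, 6 lay above it.

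Among the sorting proteins, STAM, which sorts ubiquitinated receptors on endosomes, was 8.71, 8.35, 8.56, 8.75 and 8.31 at 8 h and 9.27, 9.40, 8.88, 9.01 and 9.08 in controls. All 11 birds at 8 h and 3 d, at most 8.80 (8.795), lay below all controls, and the overlap came from 1 h replicates 5 and 6 and 7 d replicate 4. BLOC1S5, a subunit of the complex that builds lysosome-related organelles, was 7.41 ± 0.15 (n = 5) at 8 h, 7.42 ± 0.42 (n = 6) at 3 d and 7.90 ± 0.22 (n = 5) in controls. Only the 3 d birds 2 and 5 of the 11 reached the range of the other groups.

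MFAP1, a splicing factor despite its name of microfibril associated protein, was 7.23, 7.21, 7.25, 7.11 and 6.97 at 8 h and 8.02, 8.17, 7.99, 7.83 and 7.54 in controls. The 8 h birds lay close together and below all controls. At 3 d the birds spread from 6.89 to 7.95, so that part of them reached the controls.

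BIRC5, survivin, which guides chromosome segregation and cytokinesis, was the named member with the widest spread at 8 h. Its level there was 7.06, 6.50, 5.47, 8.04 and 7.76, so that the 8 h mean of 6.96 ± 1.03 (n = 5) rested on replicates 2 and 3, and the control mean was 7.83 ± 0.25 (n = 5). At 3 d BIRC5 stood at 7.50 ± 0.41 (n = 6). FANCB, a subunit of the Fanconi anaemia core complex in DNA crosslink repair, was 2.63 ± 0.30 (n = 5) at 8 h, 2.47 ± 0.34 (n = 6) at 3 d and 3.10 ± 0.46 (n = 5) in controls. All 11 FANCB values at 8 h and 3 d lay under the lowest 5th percentile of their array, as did 19 of the other 27.

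The remaining named members belong to signalling and the cytoskeleton. CAPS2, calcyphosine 2, a calcium-binding protein, was 4.00, 4.24, 4.35, 4.20 and 3.84 at 8 h and 4.76, 5.03, 4.97, 4.67 and 4.19 in controls. Of the 27 birds of the other 5 groups, only control replicate 5 at 4.19 fell among the 8 h and 3 d birds, which reached 4.46. ACVR2B, a receptor for activins and related ligands, was 5.32 ± 0.31 (n = 5) at 8 h, 5.37 ± 0.37 (n = 6) at 3 d and 5.70 ± 0.36 (n = 5) in controls.

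ASB4, a substrate-binding subunit of a ubiquitin ligase, was 3.24 ± 0.35 (n = 5) at 8 h, 3.30 ± 0.34 (n = 6) at 3 d and 3.66 ± 0.40 (n = 5) in controls. PLEK, pleckstrin, a protein kinase C substrate of platelets and leukocytes, was 2.91 ± 0.28 (n = 5) at 8 h, 2.83 ± 0.26 (n = 6) at 3 d and 3.24 ± 0.50 (n = 5) in controls, and all 11 of its values at 8 h and 3 d were under the lowest 5th percentile, as were 17 of the other 27. Of ASB4, 9 of 11 values at 8 h and 3 d and 4 of the other 27 were under it. For both, the birds of these groups overlapped. ACTC1, the alpha actin of heart muscle, was 8.87 ± 0.23 (n = 5) at 8 h, 8.74 ± 0.12 (n = 6) at 3 d and 9.19 ± 0.36 (n = 5) in controls. Actins are alike in sequence, and whether its probes also bind other actins was not tested.

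**Figure D3:**
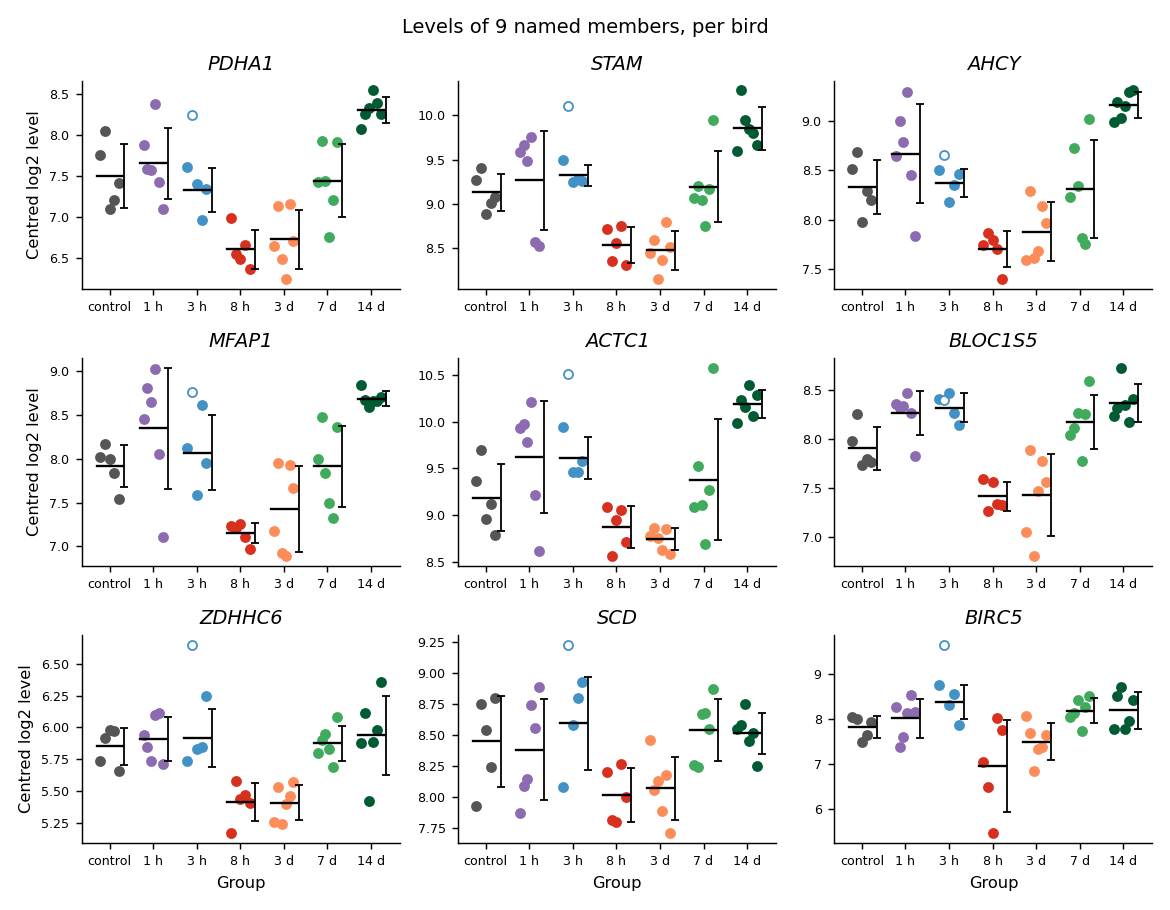
Centred log2 level of 9 named members on each array (points), by group, with the group mean (line) and SD (bar); open circles are 3 h replicate 2, left out of the mean. PDHA1, STAM, AHCY, MFAP1 and ACTC1 are highest at 14 d, ZDHHC6 and SCD lie at similar levels in the 5 other groups, and BIRC5 spreads from 5.47 to 8.04 at 8 h.

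The array median did not move with all named members alike. Within groups, a rise of the array median by 0.1 went with a rise of the centred level by 0.42 for ACTC1, 0.39 for MFAP1, 0.34 for AHCY, 0.33 for STAM and 0.33 (0.325) for PDHA1. It went with 0.07 for ZDHHC6, 0.06 for PLEK, 0.02 for TDO2 and -0.04 for SCD. With the array median as a term, the scores of TDO2, BLOC1S5, SCD, ZDHHC6, CAPS2 and BIRC5 were 0.48 (0.485), 0.45, 0.37, 0.36, 0.33 and 0.31. The scores of UMPS, ASB4, SCD5, MFAP1, ACVR2B, AHCY and ACTC1 were then 0.08, 0.07, 0.05 (0.045), 0.04, 0.04, 0.03 (0.025) and 0.02, and PDHA1, the first by the rule, had 0.16 (0.155).

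**Figure D4:**
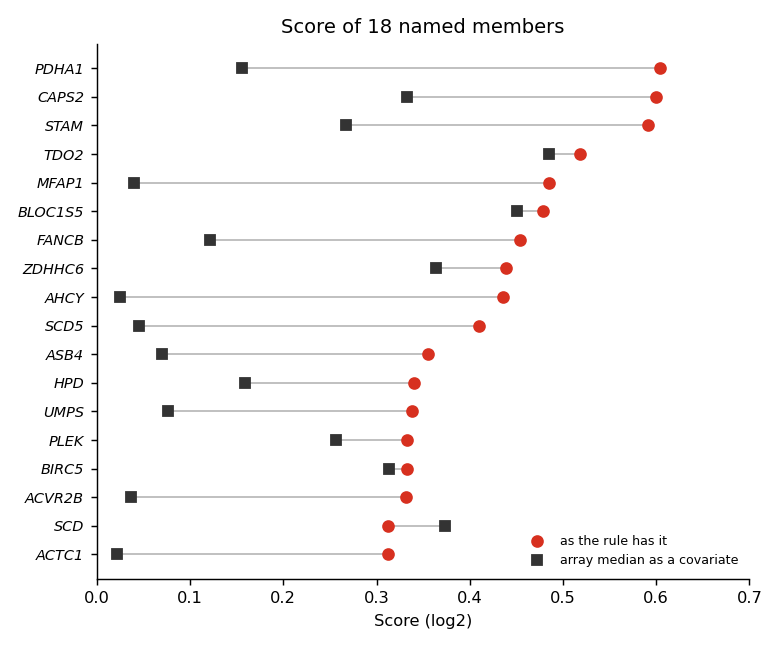
Score of each of 18 named members on the log2 scale, as the rule has it (circles) and once the array median enters as a covariate (squares). The score of AHCY fell from 0.436 to 0.025, whereas that of SCD went from 0.312 to 0.373.

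The rule does not set the sign of the difference between 8 h and 3 d or of those among the other 5 groups. It uses their means all the same, through the higher of the 2 low means and the lowest of the other 5, so the members' shares called are a description that is not independent of the choice of members. These contrasts were fitted with limma over all 26061 transcripts, and a transcript was called at a Benjamini-Hochberg adjusted p under 0.05. Between 3 d and 8 h, 110 members were higher at 3 d and 40 lower, with a median difference of 0.05 on the log2 scale, and for 126 members the means of both groups lay within 0.2 of each other. The rule favours such closeness, since it subtracts the higher of the 2 means. The same counts over all transcripts are not given here, so nothing is read from them. One member was called, higher at 3 d, against 0.384% of all transcripts. It is the zebra finch Ensembl transcript ENSTGUT00000009297, named here after its values were seen, with 8.88, 8.82, 8.87, 8.82 and 9.03 at 8 h, and at 3 d 8.94 (8.935) at the lowest, 9.58 in the middle and 10.17 at the highest. Only the lowest 3 d bird reached into the range at 8 h. The log2 difference was 0.65 ± 0.16 (SE; limma adjusted p = 0.0416), and the call was lost without any one of 3 d replicates 4, 5 and 6 or 8 h replicates 1 to 4. Of the named members BIRC5 differed most between 3 d and 8 h, by 0.54 ± 0.29 (SE), and was not called (limma adjusted p = 0.498).

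At 14 d, the later of the singing groups, members were higher than in controls more often than lower. Of the 150, 51 were called higher, against 25.1% of all transcripts, and 3 lower, against 27.1%. These are 34.0% and 2.0% of the members. A mean at 14 d far under that of controls lowers the score. This keeps falling transcripts out of the members and so raises the share called higher. Nothing is therefore read from either share. The members' median change was 0.23 on the log2 scale, and that of all transcripts was -0.01. All 14 d birds had a higher array median than all controls, at least 7.78 against at most 7.70. With the array median as a term 2 members were called in place of 54, and 3% of all transcripts in place of 52.2%.

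ACTC1 had the largest change of the named members between control and 14 d. It was 9.36, 9.70, 8.96, 9.12 and 8.79 in controls, and at 14 d 9.99 at the lowest, 10.20 in the middle and 10.39 at the highest, with no overlap. The log2 change was 1.00 ± 0.23 (SE; limma adjusted p = 0.000808). PDHA1 at 14 d ran from 8.07 over 8.29 to 8.54, above all controls, with a change of 0.81 ± 0.20 (SE; limma adjusted p = 0.0016).

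AHCY at 14 d ran from 8.99 over 9.17 to 9.31, again above all controls, with a change of 0.83 ± 0.19 (SE; limma adjusted p = 0.000985). MFAP1 was between 8.58 and 8.83 at 14 d, above all controls, with a change of 0.77 ± 0.24 (limma adjusted p = 0.0088). STAM was between 9.60 and 10.28, above all controls, with a change of 0.73 ± 0.19 (limma adjusted p = 0.0022). For each of these 5 genes every bird at 14 d was thus higher than every control. The share of all transcripts that separate in this way was not counted, so nothing is read from it. The calls of these 5 genes against control were lost with the array median as a term.

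BLOC1S5 rose by 0.46 ± 0.15 (SE; limma adjusted p = 0.0112) between control and 14 d, with 1 control, replicate 2 at 8.25, inside the range of the 14 d birds, which began at 8.17. With the array median as a term the change of BLOC1S5 was 0.02 (0.018) and the call was lost (limma adjusted p = 0.969). UMPS rose by 0.36 ± 0.13 (SE; limma adjusted p = 0.0192), a call that was lost without control replicate 3 (change 0.33, limma adjusted p = 0.051) and with 3 h replicate 2 kept (limma adjusted p = 0.0506). With the array median as a term the change of UMPS turned to -0.07 (-0.069; limma adjusted p = 0.823). The other named members were not called. SCD, for one, was 8.45 ± 0.36 (n = 5) in controls and 8.52 ± 0.17 (n = 6) at 14 d.

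Between the 2 singing groups, 35 members were called higher at 14 d than at 7 d, 23.3% of the members against 11.6% of all transcripts. None were called lower, against 9.97% of all transcripts. The rule uses the means of both groups, so nothing is read from these shares. The number of members called fell to 16 without 7 d replicate 4, where 10.2% of all transcripts were called. It fell to 18 without 7 d replicate 5 and to 22 without 14 d replicate 2. With single arrays left out, the share of all transcripts called ran from 10.2% to 34.9%. The array median was 7.69 ± 0.11 (n = 6) at 7 d and 7.82 ± 0.05 (n = 6) at 14 d. With it as a term 5 members were called, as were 4.41% of all transcripts.

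The named ones among the 35 were PDHA1, AHCY, ACTC1, MFAP1 and STAM. PDHA1 was 6.75, 7.43 and 7.92 at its lowest, middle and highest at 7 d and thus below every 14 d bird, with a difference of 0.87 ± 0.19 (SE; limma adjusted p = 0.0031). AHCY at 7 d reached from 7.76 to 9.02 (9.015), just into the range at 14 d, with a difference of 0.85 ± 0.19 (SE; limma adjusted p = 0.0029). ACTC1, MFAP1 and STAM were higher at 14 d by 0.81, 0.77 and 0.66. The MFAP1 call was lost without 7 d replicate 4 or 5. With the array median as a term AHCY was still called (0.41 (0.415), limma adjusted p = 0.0451), and the other 4 were not.

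**Figure D5:**
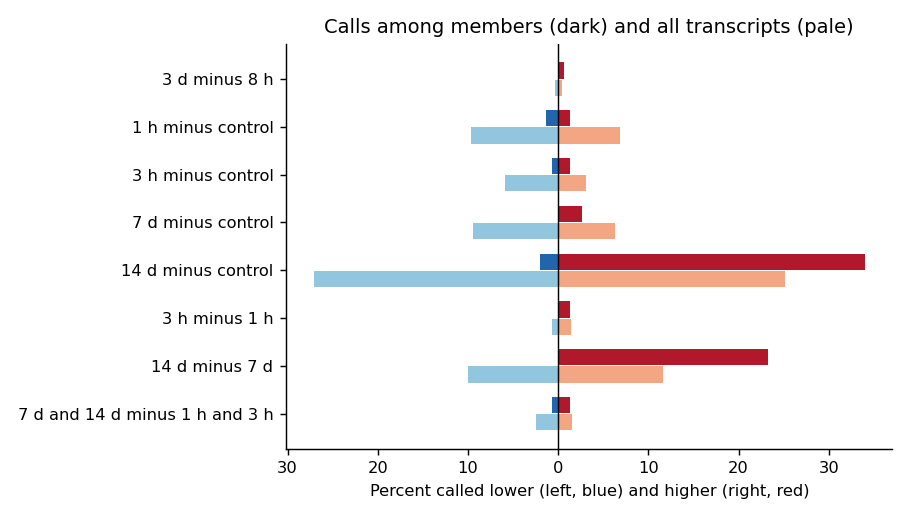
Percent of transcripts called lower (left, blue) and higher (right, red) in 8 contrasts, for the 150 members (dark) and all 26061 transcripts (pale). At 14 d against control 34.0% of members and 25.1% of all transcripts were called higher. The members' shares are not independent of the rule.

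Among the other contrasts few members were called. At 1 h against control 2 members were called higher and 2 lower, against 6.86% and 9.65% of all transcripts, and at 7 d against control 4 higher and none lower, against 6.35% and 9.44%. At 1 h the number rose from 4 to 25 without 1 h replicate 6, the array with the lowest median, where 32.8% of all transcripts were called. It fell to 2 without control replicate 1, control replicate 4 or 1 h replicate 1 and to 1 without control replicate 5 or 1 h replicate 4. At 7 d it fell to 1 without control replicate 3, 4 or 5 or 7 d replicate 6 and to 2 without 7 d replicate 2 or 5. With single arrays left out, the share of all transcripts called ran from 6.42% to 32.8% at 1 h and from 8.96% to 19.6% at 7 d. At 7 d, 12 members were called with the array median as a term, as were 12% of all transcripts.

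At 3 h against control 2 members were called higher and 1 lower, against 3.13% and 5.86%. Between 3 h and 1 h 2 were called higher, against 1.45%, and with 7 d and 14 d together against 1 h and 3 h, 2 higher and 1 lower, against 1.52% and 2.51%. The member counts at 3 h against control moved between 0 and 7 when single arrays were left out, and the share of all transcripts between 4.64% and 11.1%. Arrays of title letter L against R, with group in the fit, gave no called transcript by limma (0%), with 1128 transcripts and 6 members at an unadjusted p under 0.05.

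HPD was the one named member called at an early time. It was 4.59, 4.51, 3.99, 5.22 and 4.58 in controls and 7.56, 5.69, 5.04 and 5.41 in the 4 birds at 3 h, where replicate 1 stood far above the others. The log2 change at 3 h was 1.35 ± 0.42 (SE; limma adjusted p = 0.0387), and it was 0.80 without 3 h replicate 1 (limma adjusted p = 0.232). The call was also lost without control replicate 1, 2, 3 or 5 or 3 h replicate 3, and in the array at 3 h that the rule leaves out HPD was 4.49, among the controls. With that array kept the call was lost (limma adjusted p = 0.0587), as in the fit of 2 groups alone (0.0706). It was lost too with the title letter (limma adjusted p = 0.057) or the array median (0.11) as a term. HPD was also called lower in the 7 d and 14 d groups than at 1 h and 3 h, by a change of -0.94 ± 0.27 (SE; limma adjusted p = 0.0421), which was likewise lost without 3 h replicate 1 (-0.67, limma adjusted p = 0.121) and without any one of 12 other arrays. This call was lost as well on the values as deposited (limma adjusted p = 0.0563), with 3 h replicate 2 kept (0.151) and with the replicate block (0.0639).

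For 9 members the mean at every duration was lower than in controls. One of these, the RefSeq transcript XM_002193163, singled out after its values were seen and without a gene name here, was 11.92, 12.16, 11.92, 12.08 and 12 in controls, and at 8 h 10.90, 11.02, 10.58, 10.64 and 10.41. At 3 d it was 10.50 at the lowest, 11.23 (11.225) in the middle and 11.58 at the highest. At 1 h the change against control was -0.40 ± 0.14 (SE; limma adjusted p = 0.0381), at 3 h -0.48 ± 0.15 (limma adjusted p = 0.038) and at 14 d -0.48 ± 0.14 (limma adjusted p = 0.0043). Its 8 h birds lay below all birds of the 1 h, 3 h and 14 d groups, of which the lowest, at 3 h, was 11.28 (11.285).

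The members' order among the 5 groups outside 8 h and 3 d was uneven. The 14 d group had the highest mean of these 5 for 74 members, 49.3% against 30.8% of all transcripts, and the 3 h group for 36, 24.0% against 13.7%. Controls had the highest mean for 9 members, 6.0% against 31.6%, and the lowest for 72, 48.0% against 30.2%. All these shares are tied to the rule, since the lowest mean enters the score.

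For scale, 68 members passed the same threshold as lower at 8 h than in controls, where 6.2% of all transcripts did, and 30 at 3 d, where 1.44% did. Since the rule used these groups, nothing is read from these counts.

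Genes of 11 pathways that are no members were set beside them. Of 390 listed genes 64 were measured and are no members, of which 10 were called lower and 1 higher at 8 h against control, and 5 lower and none higher at 3 d. The 10 make 15.6% of the 64 and the 5 make 7.81%, against 6.2% and 1.44% of all transcripts, while 6.71% and 1.23% of all transcripts were called higher at these times. The median change of the 64 genes was -0.03 (-0.026) at 8 h and -0.02 (-0.023) at 3 d, against 0.01 for all transcripts at both times. Both comparisons share their controls. The gene called higher at 8 h was 1 of 10 measured genes of cytosolic ribosomal proteins. The median change of these 10 was 0.14 at both times, and none of them was called lower. The lists were chosen with earlier results of these data known, so these shares are a description and no test of the pathways.

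Of the proteasome, the protease complex that degrades ubiquitinated proteins, 2 of 3 measured subunits were lower at 8 h. PSMB7 changed by -0.72 ± 0.18 (SE; limma adjusted p = 0.0075) and PSMB2 by -0.50 ± 0.13 (SE; limma adjusted p = 0.0114), and neither was called at 3 d. With the title letter as a term the 8 h changes were -0.79 for PSMB7 and -0.55 for PSMB2. Both calls were lost (limma adjusted p = 0.0631 for PSMB7 and 0.0884 for PSMB2). Only 1 of the 8 h arrays carries a letter, so that term and the 8 h group can hardly be told apart. This limit holds for every 8 h change given with the title letter as a term. PSMB2 was not low at 8 h alone, with 9.34 at 1 h, 9.20 at 8 h and 9.34 at 14 d against 9.69 in controls. Of the citric acid cycle and pyruvate oxidation genes besides PDHA1, 1 of 4 was lower at 8 h, FH, fumarate hydratase, by -0.42 ± 0.11 (SE; limma adjusted p = 0.0103). FH lay at 8.34 at both 1 h and 14 d, with 8.15 at 8 h and 8.57 in controls. At 3 d it was 8.65, not below controls, and was not called. PDHX, another component of the pyruvate dehydrogenase complex, changed by 0.07 ± 0.13 (SE) at 8 h.

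In the respiratory chain and ATP synthase list, 2 of 6 were lower at 8 h, both ATP synthase subunits, namely ATP5MC3 with -0.83 ± 0.14 (SE; limma adjusted p = 0.000233) and ATP5F1A with -0.42 ± 0.13 (SE; limma adjusted p = 0.0254). The level of ATP5MC3 was as low at 1 h, 9.90 ± 0.31 (n = 6), as at 8 h, 9.85 ± 0.21 (n = 5), with 10.68 ± 0.09 (n = 5) in controls. At 3 d ATP5MC3 was 10.32 ± 0.34 (n = 6). The level of ATP5F1A was 9.845 at 1 h, 9.78 at 8 h, 9.84 at 3 d and 9.90 at 14 d, with 10.20 in controls. Neither subunit was called at 3 d. The ATP5F1A call was lost without control replicate 2 or 3 or 8 h replicate 4 and with 3 h replicate 2 kept (limma adjusted p = 0.206). It was also lost once the title letter was a term (change -0.35 (-0.346), limma adjusted p = 0.286).

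Of 11 spliceosome genes measured besides MFAP1, 1 was called, SMU1, a spliceosome activation factor, by -0.88 ± 0.25 (SE; limma adjusted p = 0.0166) at 8 h and by -1.18 ± 0.24 (SE; limma adjusted p = 0.0062) at 3 d. SMU1 is dim, with 4.31 ± 0.33 (n = 5) in controls, 3.43 ± 0.17 (n = 5) at 8 h and 3.13 ± 0.40 (n = 6) at 3 d. The 8 h call of SMU1 was lost with the title letter as a term (change -0.92, limma adjusted p = 0.139) and with 3 h replicate 2 kept (limma adjusted p = 0.05). Of 8 translation initiation factors EIF4A2, an RNA helicase, was lower by -0.99 ± 0.10 (SE; limma adjusted p = 3.38e-08) at 8 h and by -0.80 ± 0.09 (SE; limma adjusted p = 1.3e-05) at 3 d. EIF4A2 was not low at these times alone, since it lay at 11.87 (11.865) at 1 h, 11.81 at 8 h and 11.98 at 14 d, with 12.80 in controls.

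Of 4 measured genes of dynein and dynactin, the motor that carries cargo along microtubules towards the cell body, ACTR10 and CAPZA2 were lower at both times. ACTR10, an actin-related dynactin subunit, was 10.75 ± 0.24 (n = 5) in controls, 9.82 ± 0.36 (n = 5) at 8 h and 10.05 ± 0.45 (n = 6) at 3 d. It was already below the control mean at 1 h and 3 h, with 10.33 and 10.31, and at 7 d and 14 d it stood at 10.82 and 10.79. Its change was -0.93 ± 0.19 (SE; limma adjusted p = 0.0011) at 8 h and -0.70 ± 0.18 (SE; limma adjusted p = 0.0268) at 3 d. The 3 d call was lost without any one of control replicates 1, 2, 3 and 5 or 3 d replicates 1, 3 and 4. CAPZA2, a capping protein subunit, changed by -0.31 and -0.34, and both calls were lost without control replicate 1 or 3, at 8 h also without 8 h replicate 2 or 3 and at 3 d without 3 d replicate 3 or 4. Both CAPZA2 calls and the 3 d call of ACTR10 were lost in fits of 2 groups alone, and both CAPZA2 calls with 3 h replicate 2 kept. With the title letter as a term the 8 h change of CAPZA2 was -0.33 and its call was lost (limma adjusted p = 0.133).

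Of 6 glucocorticoid-responsive genes measured, PDK4, the kinase that switches the pyruvate dehydrogenase complex off, was lower at 8 h by -0.55 ± 0.13 (SE; limma adjusted p = 0.0033). At 3 d its change was -0.43 ± 0.12 (SE; limma adjusted p = 0.042), a call lost without any one of 7 arrays, among them control replicate 1 (-0.31, limma adjusted p = 0.177), and under 5 other settings at the same threshold, among them the values as deposited (limma adjusted p = 0.0868) and the fit of 2 groups alone (limma adjusted p = 0.187). PDK4 was about as low at 7 d, 9.05, and at 14 d, 9.14, as at 3 d, 9.08, with 9.51 in controls. None of 2 clock genes, 5 immediate early genes and 6 steroid receptor or steroid-converting genes was called at either time. ESR1, the estrogen receptor alpha, changed in opposite directions at the 2 times. The change was 0.55 ± 0.28 (SE; limma adjusted p = 0.1991) at 8 h and -0.92 ± 0.27 (SE; limma adjusted p = 0.0541) at 3 d.

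Markers of the cell types HVC tissue can hold were measured for 17 of 96 listed genes, none of them members and none of 10 erythrocyte genes. At 8 h against control ENO2, a neuronal enolase, was higher by 0.65 ± 0.18 (SE; limma adjusted p = 0.0125), and LY86, a microglia and macrophage gene, was lower by -0.57 ± 0.15 (SE; limma adjusted p = 0.01). The ENO2 call was lost without control replicate 1 and again once the title letter was a term (change 0.66, limma adjusted p = 0.109). The LY86 change was then -0.36 (limma adjusted p = 0.31), and its call was also lost in a fit of both groups alone (limma adjusted p = 0.0559). At 3 d none of the 17 was called. LY86 was the 1 of 12 microglia markers measured, with 6.86 to 7.66 at 8 h and 7.34 to 8.08 in controls. The summed level of the 4 neuronal markers of 10 lay between 12.57 and 13.02 at 8 h, 12.14 and 13.12 at 3 d and 12.41 and 12.84 in controls, and that of the 3 astrocyte markers of 10 between 9.55 and 9.79, 9.51 and 9.96, and 9.60 (9.595) and 9.82. That of the 2 oligodendrocyte markers of 12 lay between 12.36 and 12.65 at 8 h, 12.08 (12.075) and 12.77 at 3 d and 11.92 and 12.38 in controls. It was 12.53 ± 0.105 (n = 5) at 8 h, 12.36 ± 0.25 (n = 6) at 3 d and 12.12 ± 0.20 (n = 5) in controls. The highest group mean was at 3 h, 12.79 (12.785) ± 0.34 (n = 4), so a raised sum was not particular to 8 h and 3 d. The part of these markers in the members' levels was not tested, and the label HVC was not checked, since no marker particular to that nucleus was on the lists.

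Some features that do not enter the score are set against the whole array as a description. A score from group means can favour transcripts that vary more within groups, so these features are not independent of the rule. Predicted mRNA models of RefSeq made up 90 members, 60.0% against 40.2% of all transcripts, and zebra finch Ensembl transcripts 47, 31.3% against 45.8%. Members were dimmer than the array at large, with 28.7% in the dimmest 20% of the array and 15 members in the brightest, and their median level stood at the 37.9 percentile. Their SD within groups had a median of 0.32, against 0.21 for all transcripts. Within groups, the mean correlation between pairs of members over 38 arrays was 0.241, against 0.004 for pairs of all transcripts, and the arrays share the array median described above.

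The mirrored set, the 150 transcripts highest at 8 h and 3 d by the same rule turned round, had scores of 0.41 (0.405) to 1.53, wider than those of the members, a within-group SD of 0.38 and a mean pair correlation of 0.305. The 150 transcripts lowest in both singing groups by the same rule had scores of 0.24 (0.245) to 0.82, an SD of 0.28 and a pair correlation of 0.216. Of these sets, the members had the fewest transcripts among the brightest 20% of the array, 15 against 30 in both others. An SD and a pair correlation above those of all transcripts were common to these sets and not particular to the members. No test was made of the differences between the sets.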

How the data were processed

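HVC RNA of 39 birds was measured on Affymetrix arrays. The deposited table holds log2 values for 26061 transcripts, processed by the authors. The submitters' processing notes name Affymetrix Expression Console and affy, and how probes were summarised and arrays normalised was not given in the sources used here. That the scale is log2 follows from the values, which run from 0.77 to 14.09. Groups follow the labels, and the number of arrays limits the precision.

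Here each array was centred on its median, and 3 h replicate 2 was left out. limma 3.58.1 in R 4.3.3 fitted the 7 group means (lmFit, eBayes, 31 residual degrees of freedom), with Benjamini-Hochberg adjustment over all transcripts in each contrast and a threshold of 0.05. The scripts were tested on simulated data. Symbols came from unversioned RefSeq accessions in the zebra finch assembly bTaeGut7.mat, and a symbol with several transcripts was given its brightest. Every member with a symbol is named, and of each pathway list up to 4 called genes, except 2 genes that are not reported here. PDHX, ESR1 and 2 members without a symbol were named after their values were seen. The members and gene lists were chosen with earlier results of these data known. Alternatives were the deposited values, quantile normalisation, 3 h replicate 2 kept, the dimmest 25% left out, trend and robust options, the replicate number as a block, the title letter as a term, a threshold of 0.01, group medians in the rule and each array left out, and, chosen after seeing the data, the array median as a covariate and fits of the 2 groups compared.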

Additional observations from a re-analysis of the deposited data

Results flagged for a closer look

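In 6 of 140 groups of 4 to 6 arrays, 1 bird lay farther from the others than the 95% critical value of Dixon's test allows, and chance does so in about 1 of 20 groups. STAM was 9.50 on 3 h replicate 1, where the other 3 h birds were between 9.25 and 9.28, and 9.95 on 7 d replicate 6, where the others were between 8.75 and 9.20. FANCB was 4.11 on the same 7 d replicate 6, against 2.75 to 3.20, and that array had the highest median of its group, 7.87. BLOC1S5 was 7.83 on 1 h replicate 6, against 8.26 to 8.47, and that array had the lowest median of all. ASB4 was 2.96 on control replicate 5, against 3.74 to 3.93, and that array had the lowest median of the controls, 7.50. The array median itself was 7.91 on 14 d replicate 2, against 7.78 to 7.82 on the other 14 d arrays.

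The change against the shared controls differed between 14 d and 7 d by limma's test of that difference for 5 named members, by 0.87 for PDHA1, 0.85 for AHCY, 0.81 for ACTC1, 0.77 for MFAP1 and 0.66 for STAM on the log2 scale. The array median also differed between these groups. Calls with it as a covariate are given above with these genes, and its part in the differences was not tested. On 3 h replicate 2, which entered comparisons only in the alternative that kept it, the members' median level was 7.58. That lay above the 6.83 to 7.47 of the controls. Dim transcripts read high on that array, and members were dimmer than the array at large, so nothing is read from this level.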

How the results depend on the processing

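Calls are given as a percent of the 26061 transcripts, followed by the number of members called where that moved by over 1.5 times. With 3 h replicate 2 kept, calls against control were 7.44% at 1 h (members 2), 22.8% at 3 h (16), 7.79% at 7 d (1), 6.89% at 8 h and 0.883% at 3 d. They were then 0.246% for 3 d against 8 h (0), 5.07% for 3 h against 1 h (8), 11.1% for 14 d against 7 d and 1.74% for singing against early groups (0). At a threshold of 0.01 the same calls were 4.19% (1), 3.05% (0), 5.9% (1), 5.32% and 0.618%, then 0.157% (0), 0.683% (0), 7.04% (11) and 0.948% (0). At 14 d against control 32 members were then called, as were 35.4% of all transcripts. With the array median as a covariate the calls were 3.04% at 1 h (1), 3% at 14 d (2), 22.7% at 8 h, 7.9% at 3 d, 3.11% for 3 d against 8 h, 6.51% for 3 h against 1 h (10), 4.41% for 14 d against 7 d (5) and 0.00384% for the letter. At 3 h 10 members were called, as were 6.96% of all transcripts, and at 7 d 12 members, as were 12%. The changes of STAM, MFAP1 and UMPS at 14 d against control then turned to -0.029, -0.113 and -0.069, and 49 members were shared. Fits of the 2 groups compared called 2.37% at 1 h (1), 0.963% at 3 d, 0.0959% for 3 d against 8 h (0) and 0.00384% for 3 h against 1 h (0). They called 7 members at 3 h and 11.4% of all transcripts. With the title letter as a term, calls were 10.5% at 7 d (1), 2.8% at 8 h, 1.6% at 3 d and 0.153% for 3 d against 8 h (0). There were 0 members at 3 h and 0 between 3 h and 1 h, against 6.54% and 1.75% of all transcripts. On values as deposited, 1.21% were called for 3 d against 8 h. Members called were 7 at 3 h, 7 at 7 d and 1 between 3 h and 1 h, against 9.55%, 16.2% and 2.54% of all transcripts. Quantile normalisation called 5 members at 3 h and 8.64% of all transcripts. Leaving out the dimmest 25% kept 97 members and called 2 at 7 d, against 21.3% of the transcripts that were left. Group medians in the rule kept 99 members. By construction, a threshold of 0.01 allows fewer calls and a list without the dimmest 25% holds fewer members. The title letter is missing on most 8 h arrays, so a fit with it as a term can hardly tell it apart from the 8 h group. The cause of the other moves was not tested.

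As deposited, without centring, calls at 14 d against control were 11257 higher and 3716 lower, in place of 6537 and 7070. At 1 h they were 3600 and 1530 in place of 1789 and 2515, at 3 h 1582 and 908 in place of 816 and 1528, at 7 d 2622 and 1587 in place of 1654 and 2459, and for 14 d against 7 d 4901 and 1307 in place of 3022 and 2597.

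Same-numbered replicates did not deviate together in the median (correlation 0.011 over 105 pairs, against 0.001 over other pairs). Single same-numbered pairs ranged from -0.69 to 0.38 and other pairs from -0.54 to 0.67. No pairing by number was seen in this measure, which cannot exclude one. With the replicate block, 0 members were called for 3 d against 8 h, 0 for 3 h against 1 h, 6 at 3 h and 2 at 7 d. Of all transcripts 0.537%, 1.57%, 10.1% and 14.8% were called in these contrasts.

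Leaving out 1 array at a time, calls ranged from 0.188% to 1.81% for 3 d against 8 h, 6.42% to 32.8% at 1 h, 4.64% to 11.1% at 3 h, 8.96% to 19.6% at 7 d, 44.0% to 54.2% at 14 d, 0.817% to 3.78% for 3 h against 1 h, 10.2% to 34.9% for 14 d against 7 d, 9.22% to 14.9% at 8 h, 1.2% to 3.63% at 3 d, 2.15% to 7.0% for singing against early groups and 0 to 0.00767% for the letter. Members called ranged from 0 to 1 for 3 d against 8 h, 1 to 25 at 1 h, 0 to 7 at 3 h, 1 to 6 at 7 d, 41 to 61 at 14 d, 0 to 4 for 3 h against 1 h, 16 to 43 for 14 d against 7 d and 1 to 6 for singing against early groups, and 117 to 148 members were kept. The highest percents at 1 h and between 3 h and 1 h came without 1 h replicate 6, whose array median was the lowest of all, and that for 14 d against 7 d without 7 d replicate 6, whose array median was the highest of its group. The number of arrays limits the precision throughout.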
